A study of Mus musculus with 9 samples.

Results

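The Armcx genes (Armcx1 to Armcx6) and the MAGE-D genes Maged1 and Maged2 were followed in CD8+ T cells of the mouse, which kill virus-infected cells and tumour cells. These 8 genes, all on the X chromosome, were taken by symbol from the 24391 genes of the deposited count tables. They were chosen with their difference between the treatment groups already known, mainly that of Armcx2 and Maged1, so their values in that comparison are a description and not a test. Their RNA was sequenced in 9 libraries. In 4 of them the cells had been activated for 72 h with an inhibitor of LSD1 (LSD1i), the enzyme that takes methyl groups off histone H3 in repressor complexes, and in 5 they had been activated for 72 h without it (NT, not treated). The medium of all cultures was complete RPMI with interleukin 2 at 100 U/mL. The labels name neither the inhibitor and its dose nor the strain, sex or age of the mice. Nothing in them tells if replicates are different mice or repeat cultures. The p-values below thus reflect library-to-library spread, which could be technical. Unless stated otherwise, LSD1i was compared with NT on counts the authors had already corrected for batch, without a batch term. The p-values of that comparison reflect the spread left after the correction, which they do not allow for, and may be too small.

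ARMCX proteins carry a C-terminal armadillo-like domain, and several of them sit on mitochondria. In mouse neurons ARMCX3 binds the Miro and TRAK proteins that link mitochondria to kinesin motors, and ARMCX1 promotes mitochondrial transport in axons. MAGE-D proteins share the MAGE homology domain, through which MAGE proteins bind E3 ubiquitin ligases. MAGED1, also called NRAGE, is an adaptor of the neurotrophin receptor Ngfr, and MAGED2 is best known from the human kidney, where it supports salt transporters of the distal tubule before birth.

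The group names of 4 libraries differed between the deposited tables. Libraries were matched by which genes had no reads. Every library of the raw table matched 1 library of the corrected table at each gene, and any other choice mismatched at no fewer than 1336 genes. By this match, LSD1i 1 and LSD1i 2 of the batch-corrected table carry the raw names NT 1 and NT 2, its NT 1 and NT 2 carry the raw names LSD1i 1 and LSD1i 2, and the other 5 libraries have the same name in both. The labels do not say which names are right. Values below carry the names of the batch-corrected table unless the raw names are given, and the differences are repeated in the 5 libraries named alike and in the other 4. Library totals ran from 15163983 to 29245278 raw reads, and the libraries fell into 2 batches recovered from the data, replicates 1 and 2 against replicates 3 to 5. NT 1 stood apart in its reads of the ribosomal RNA gene Rn45s, 13.3% of its total, against 2.87% or less in the other 8 libraries. The 10 T cell markers examined, led by Cd8a in LSD1i and by Lck in NT, summed to 2872 to 3010 CPM (reads scaled to library size) in LSD1i and 2533 to 2811 CPM in NT. Cd8a itself was called higher in LSD1i (log2 fold change 0.38 ± 0.08, adjusted p = 0.0266 in edgeR), a call lost in 6 of 9 fits that left out a library (adjusted p up to 0.102). The call of Cd8a was also lost in raw counts with a batch term (adjusted p = 0.126 in edgeR) and with the replicate number as a block (0.0548). Cd4 had at most 5 counts in any library. Xist, the RNA of the inactive X chromosome, had at least 5261 counts in each library, and the Y-linked genes Ddx3y, Kdm5d, Eif2s3y and Uty had 0.

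The start regions of Armcx2 and Maged1, the 2 genes with the largest differences, are shown beside that of Maged2 because the Maged1 window and 2 of the 4 Maged2 windows hold a motif that the Armcx2 window lacks. Windows from 250 bases before to 50 after the start came from RefSeq (build GRCm38.p6, whereas the counts were made on mm9 per the submitters' processing notes) and were matched by symbol for 7 of the 8 genes, all but Armcx3. Capitals mark the motif of the factor NRF1, which reads the same on both strands. The windows lie on the minus strand at chrX:134809172-134809471 for Armcx2, chrX:94541976-94542275 for Maged1 and chrX:150812953-150813252 for Maged2, where it is the third of 4 windows listed.
Armcx2: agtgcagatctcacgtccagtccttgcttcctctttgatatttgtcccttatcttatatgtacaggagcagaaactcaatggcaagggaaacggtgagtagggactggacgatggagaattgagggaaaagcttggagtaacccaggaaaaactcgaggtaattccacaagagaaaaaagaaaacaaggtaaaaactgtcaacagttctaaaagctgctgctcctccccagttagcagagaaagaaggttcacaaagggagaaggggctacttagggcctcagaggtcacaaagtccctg
Maged1: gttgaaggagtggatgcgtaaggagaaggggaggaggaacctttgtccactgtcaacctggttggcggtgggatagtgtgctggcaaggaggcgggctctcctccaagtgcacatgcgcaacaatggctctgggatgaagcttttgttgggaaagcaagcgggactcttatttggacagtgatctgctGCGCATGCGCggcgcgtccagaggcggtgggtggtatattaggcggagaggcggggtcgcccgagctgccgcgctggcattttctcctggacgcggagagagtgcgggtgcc
Maged2: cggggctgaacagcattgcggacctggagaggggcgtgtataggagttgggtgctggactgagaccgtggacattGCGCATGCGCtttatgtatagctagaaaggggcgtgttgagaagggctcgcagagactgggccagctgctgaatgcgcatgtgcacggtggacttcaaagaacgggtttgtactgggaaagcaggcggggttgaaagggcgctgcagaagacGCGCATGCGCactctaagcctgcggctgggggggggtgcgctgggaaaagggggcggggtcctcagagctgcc
The NRF1 motif stood at 1 position in the Maged1 window and at 2 in this Maged2 window. The fourth Maged2 window, which overlaps the third, held the same 2 positions, and the other 2 Maged2 windows held none. Of the 32851 windows in the table, 0.971% held it, and it was in none of the 5 Armcx windows.

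The windows of Armcx1, Armcx4 and Armcx6 each held CACGTG, the E-box core, a motif searched after the sequences had been read. It was present in 7.15% of all windows on either strand and was not in the Armcx2 or Armcx5 window. The 40 bases around it are shown to compare these neighbouring genes. Capitals mark the E-box core, in the longer form TCACGTGA where present (0.974% of windows), and TGACG, the core of the cyclic AMP response element (CRE). The stretches lie at chrX:134717910-134717949 (plus strand) for Armcx1, chrX:134686491-134686530 (plus) for Armcx4 and chrX:134751431-134751470 (minus) for Armcx6, in GRCm38.p6.
Armcx1: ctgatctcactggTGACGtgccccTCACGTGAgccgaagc
Armcx4: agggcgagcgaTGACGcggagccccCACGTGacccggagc
Armcx6: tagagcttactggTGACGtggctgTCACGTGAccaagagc
The Armcx1 and Armcx6 stretches had the same base at 29 of 40 positions, those of Armcx1 and Armcx4 at 20, and those of Armcx4 and Armcx6 at 19. The stretches were aligned on CACGTG, so the bases of this core match in each pair by construction. No other windows were aligned in this way for comparison. TGACG, on either strand, was in the windows of Armcx1, Armcx4, Armcx5 and Armcx6 and in the first Maged2 window, and in 20.8% of all windows. The full CRE TGACGTCA (1.79% of all windows) and AATCAC, the core of the motif of the repressor GFI1 (10.4%), were in none of the windows of the 7 genes. GGGCGG, the GC box (35.7%), was in the Armcx4 window and in all 4 Maged2 windows. The dinucleotide CG occurred 4 times in the Armcx2 window, 7 times in that of Armcx1, 10 in Armcx6, 19 in Armcx4, 20 in Maged1 and 25 in Armcx5, against a median of 7.0 over all windows.

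Armcx2 and Maged1 stood apart from the other 6 genes, with several times more reads in LSD1i than in NT. Armcx2 was at 54.0, 48.6, 56.7 and 50.3 CPM in LSD1i 1 to LSD1i 4, against 10.9, 10.5, 9.57, 9.67 and 11.1 CPM in NT 1 to NT 5. The 4 LSD1i libraries lay close together and far above all 5 NT libraries. The means were 52.4 ± 3.62 CPM in LSD1i (SD, n = 4) and 10.3 ± 0.702 CPM in NT (SD, n = 5), a 5.06-fold difference. The raw reads behind them numbered 950, 986, 982 and 1043 in LSD1i and 291, 158, 196, 179 and 254 in NT. In the authors' deposited table, which compares the same groups, Armcx2 was listed in place 1 of 20052 genes, with a log2 fold change of 2.35. Places are those of the listing, which is not ordered by fold change.

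Maged1 was at 23.3, 20.7, 23.9 and 25.7 CPM in LSD1i 1 to LSD1i 4, against 2.59, 2.77, 2.18, 1.64 and 2.05 CPM in NT 1 to NT 5. Its lowest LSD1i library was several times above its highest NT library. The means of 23.4 ± 2.07 CPM in LSD1i and 2.24 ± 0.449 CPM in NT gave a 10.4-fold difference. The raw reads numbered 567, 513, 326 and 419 in LSD1i and 91, 55, 36, 24 and 36 in NT. Maged1 stood in place 4 of the authors' deposited table with a log2 fold change of 3.39. Of the 8 genes, that table marks Armcx2 and Maged1 as up and the other 6 as not significant. All 94 genes it marks up and all 44 it marks down had an absolute log2 fold change of at least 1.20.

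**Figure D1:**
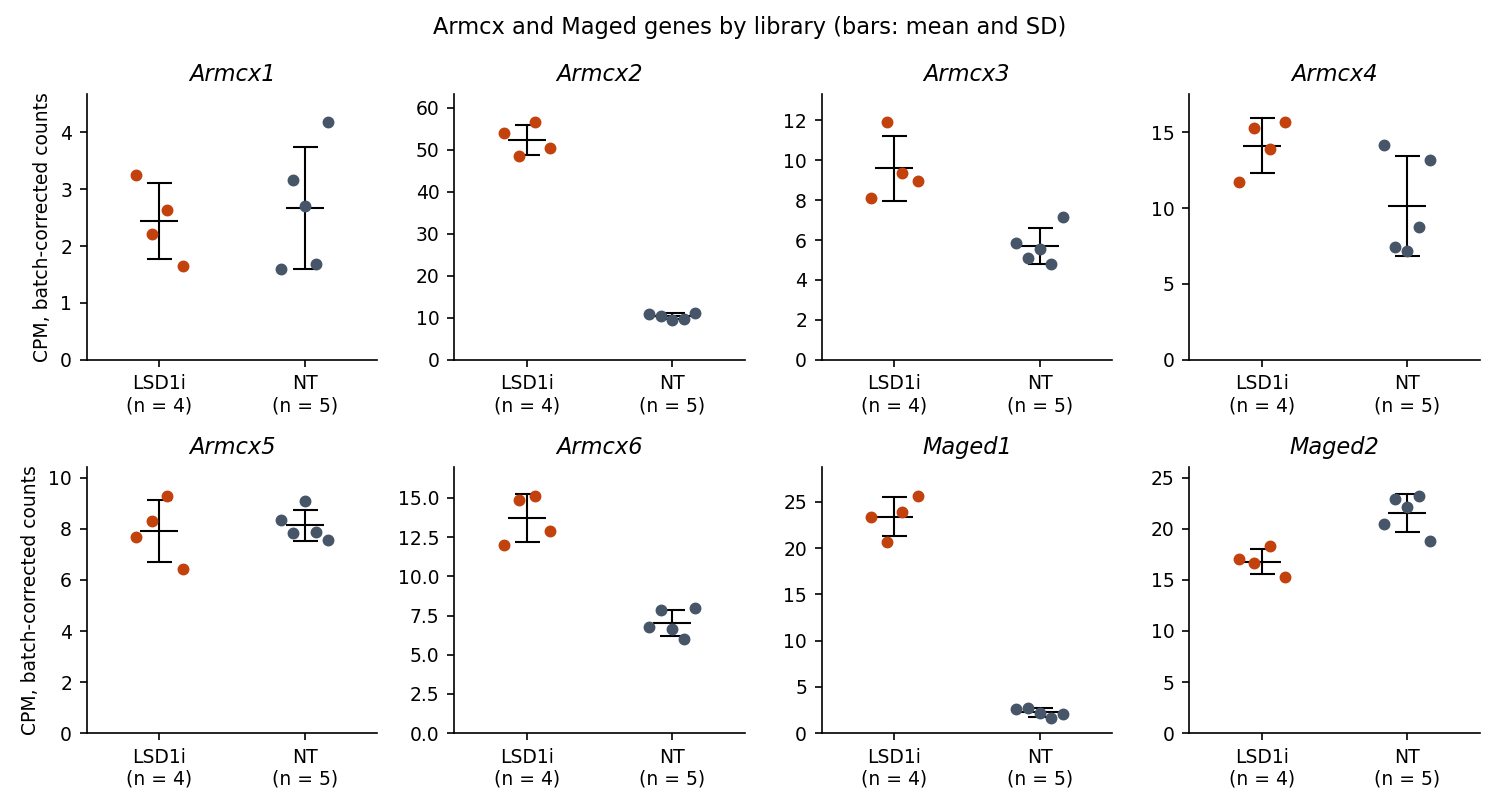
Level of each gene in CPM from the batch-corrected counts (linear y axes from 0) in LSD1i (orange, 4 libraries) and NT (grey, 5 libraries), with a point per library and bars for mean and SD. The groups do not overlap for Armcx2, Armcx3, Armcx6 and Maged1, which were higher in LSD1i, and for Maged2, which was lower, and they overlap for Armcx1, Armcx4 and Armcx5.

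Armcx6 and Armcx3, which lie next to each other between Armcx1 and Armcx2, differed less. Armcx6 was at 12.0, 14.9, 15.2 and 12.9 CPM in LSD1i 1 to LSD1i 4, against 6.75, 7.84, 6.63, 6.02 and 7.97 CPM in NT 1 to NT 5, a 1.95-fold difference of the fitted means without overlap. Armcx3, the partner of the mitochondrial Miro and TRAK proteins, was at 8.11, 11.9, 9.36 and 8.97 CPM in LSD1i and 5.87, 5.07, 5.54, 4.81 and 7.16 CPM in NT. Its groups did not overlap either, but LSD1i 1 and NT 5 lay near each other, and the fitted difference was 1.68-fold. In the authors' deposited table their log2 fold changes were 0.97 and 0.76.

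Armcx4, Armcx1 and Armcx5 overlapped between the groups. Armcx4, at 11.7, 15.3, 13.9 and 15.7 CPM in LSD1i and 14.1, 7.45, 7.20, 8.77 and 13.2 CPM in NT, had a log2 fold change of 0.47 ± 0.21 (SE). NT 1 and NT 5 were within the range of the LSD1i libraries, and the other 3 NT libraries were below it. Armcx1, with a role in axonal mitochondrial transport, was the lowest of the 6 Armcx genes at 3.26, 2.22, 2.63 and 1.65 CPM in LSD1i and 1.60, 3.16, 2.70, 1.69 and 4.18 CPM in NT (−0.13 ± 0.30). Armcx5 was at 7.67, 8.31, 9.31 and 6.42 CPM in LSD1i and 8.35, 7.84, 9.09, 7.87 and 7.56 CPM in NT (−0.04 ± 0.13). Their SEs set what could be seen, and the SE of Armcx1 was the largest of the 8.

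Maged2 differed in the other direction from Maged1. It was at 17.0, 16.6, 18.3 and 15.3 CPM in LSD1i 1 to LSD1i 4, against 20.5, 22.9, 22.1, 23.3 and 18.8 CPM in NT 1 to NT 5. All LSD1i libraries were below all NT libraries, but LSD1i 3 and NT 5 lay near each other. The log2 fold change was −0.36 ± 0.10. The ratio of Maged1 to Maged2 counts was 1.40 ± 0.195 in LSD1i (range 1.25 to 1.68) and 0.105 ± 0.0222 in NT (range 0.0705 to 0.127), so Maged1 outnumbered Maged2 in each LSD1i library and Maged2 outnumbered Maged1 in each NT library.

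The Armcx genes as a family had 100.2 ± 5.06 CPM in LSD1i and 44.04 ± 5.15 CPM in NT. Armcx2 took 55.8%, 48.0%, 53.0% and 52.5% of the Armcx counts in LSD1i 1 to LSD1i 4, against 23.0%, 25.04%, 23.5%, 24.9% and 21.7% in NT 1 to NT 5. The other 5 genes together had 47.8 ± 4.44 CPM in LSD1i (range 42.8 to 52.6) and 33.7 ± 4.52 CPM in NT (range 29.2 to 40.05). In raw counts the share of Armcx2 was 49.7% to 57.3% in LSD1i and 20.7% to 26.6% in NT.

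**Figure D2:**
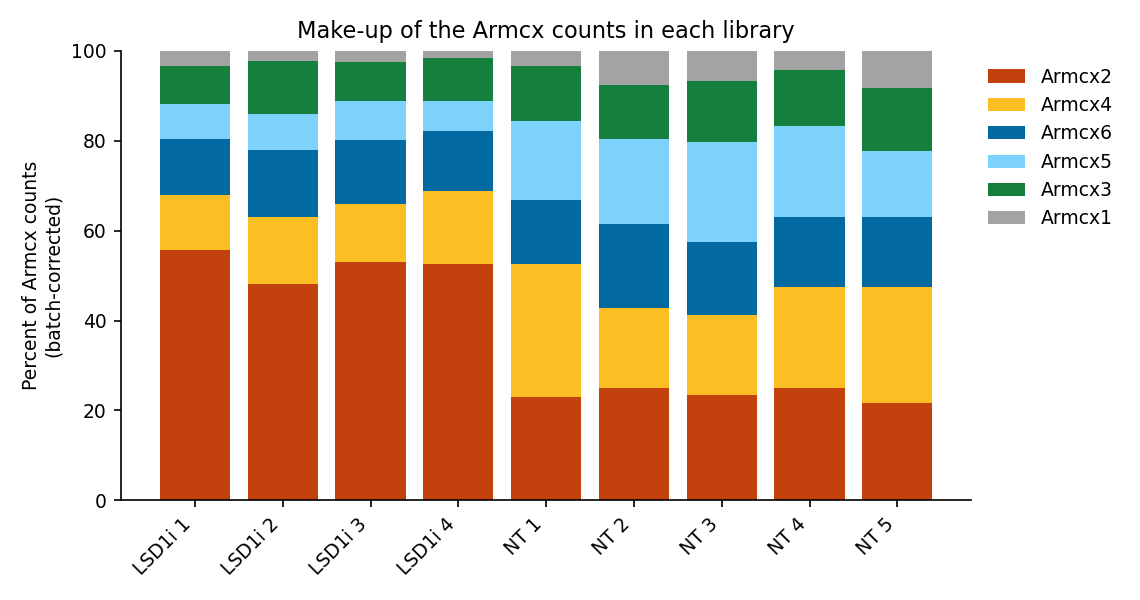
Percent of the batch-corrected Armcx counts taken by each of the 6 genes (stacked, adding to 100) in the 4 LSD1i libraries and the 5 NT libraries. Armcx2 (orange, at the bottom) holds 48.0% to 55.8% in LSD1i and 21.7% to 25.04% in NT.

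Levels were compared between genes per kilobase of exon in GENCODE M21 (GRCm38), which may differ from the gene models the authors counted. In LSD1i the order ran from Armcx2 (11.6 ± 0.798 CPM per kb) through Armcx6 (5.52), Maged1 (5.38), Maged2 (5.19), Armcx3 (2.71), Armcx5 (1.87) and Armcx4 (1.77) to Armcx1 (0.756). Neighbours in this order overlapped over the 4 libraries for Armcx6 and Maged1, Maged1 and Maged2, and Armcx5 and Armcx4, and the other neighbours did not. In NT the order ran from Maged2 (6.64 ± 0.577 CPM per kb) through Armcx6 (2.83), Armcx2 (2.28), Armcx5 (1.92), Armcx3 (1.61), Armcx4 (1.27) and Armcx1 (0.827) to Maged1 (0.516). Over the 5 NT libraries each neighbouring pair overlapped except Maged2 and Armcx6. Armcx2 was thus in place 1 of the 8 in LSD1i and in place 3 in NT, and Maged1 was in place 3 in LSD1i and last in NT.

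All 8 genes passed the filter on low counts. In the fit of the batch-corrected table by group, 4 of the 8 (Armcx2, Maged1, Armcx6 and Armcx3) passed an adjusted p of 0.05 as higher in LSD1i, where 2.15% of 11981 tested genes did, and 0 passed as lower, where 1.16% did. The log2 fold changes of the 4 were 2.34 ± 0.09 for Armcx2, 3.38 ± 0.14 for Maged1, 0.96 ± 0.12 for Armcx6 and 0.75 ± 0.15 for Armcx3. The groups did not overlap for the same 4 genes, higher in LSD1i (4.41% of tested genes), and for Maged2, lower in LSD1i (3.46%). Because the genes were chosen on this contrast, nothing is read from these counts.

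In each batch, and so with and without the 4 libraries whose names differ, the 5 genes whose groups did not overlap kept their direction, and Maged1 moved most among the 4 higher ones. In raw counts of the 5 libraries named alike (replicates 3 to 5) the log2 fold change was 2.41 ± 0.14 for Armcx2, 3.66 ± 0.18 for Maged1, 1.03 ± 0.17 for Armcx6, 0.63 ± 0.22 for Armcx3 and −0.34 ± 0.12 for Maged2. In the other 4 libraries (replicates 1 and 2) the values were 2.26 ± 0.18 for Armcx2, 3.02 ± 0.21 for Maged1, 0.88 ± 0.24 for Armcx6, 0.84 ± 0.27 for Armcx3 and −0.35 ± 0.20 for Maged2. Of the other 3 genes, Armcx1 had opposite signs in the 2 sets (−0.35 ± 0.34 and 0.34 ± 0.48). With all 9 raw libraries and a batch term 3 of the 8 passed as higher, Armcx3 being lost, where 1.39% of genes did and 0.453% were lower. With the replicate number as a block 4 of the 8 passed as higher, where 1.98% of genes did. In the fits of each set 2 of the 8 genes, Armcx2 and Maged1, passed in each set, where 0.803% of genes passed as higher in the 5 libraries and 0.0676% in the other 4. These fits use the same libraries and contrast on which the genes were chosen, so nothing is read from these counts either.

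With the group names of the raw table the differences were largely gone. Armcx2 then had 291, 158, 982 and 1043 raw reads in LSD1i 1 to LSD1i 4, against 950, 986, 196, 179 and 254 in NT 1 to NT 5, and Maged1 had 91, 55, 326 and 419 in LSD1i, against 567, 513, 36, 24 and 36 in NT. Each group then held libraries at both levels. The log2 fold changes were 0.31 ± 0.70 for Armcx2 and −0.06 ± 0.99 for Maged1, and 0 of the 8 genes passed in edgeR, as did 0.0% of all tested genes (172 of 11916 had an unadjusted p under 0.05). The direction of each difference above therefore rests on the names of the batch-corrected table or on the 5 libraries named alike.

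**Figure D3:**
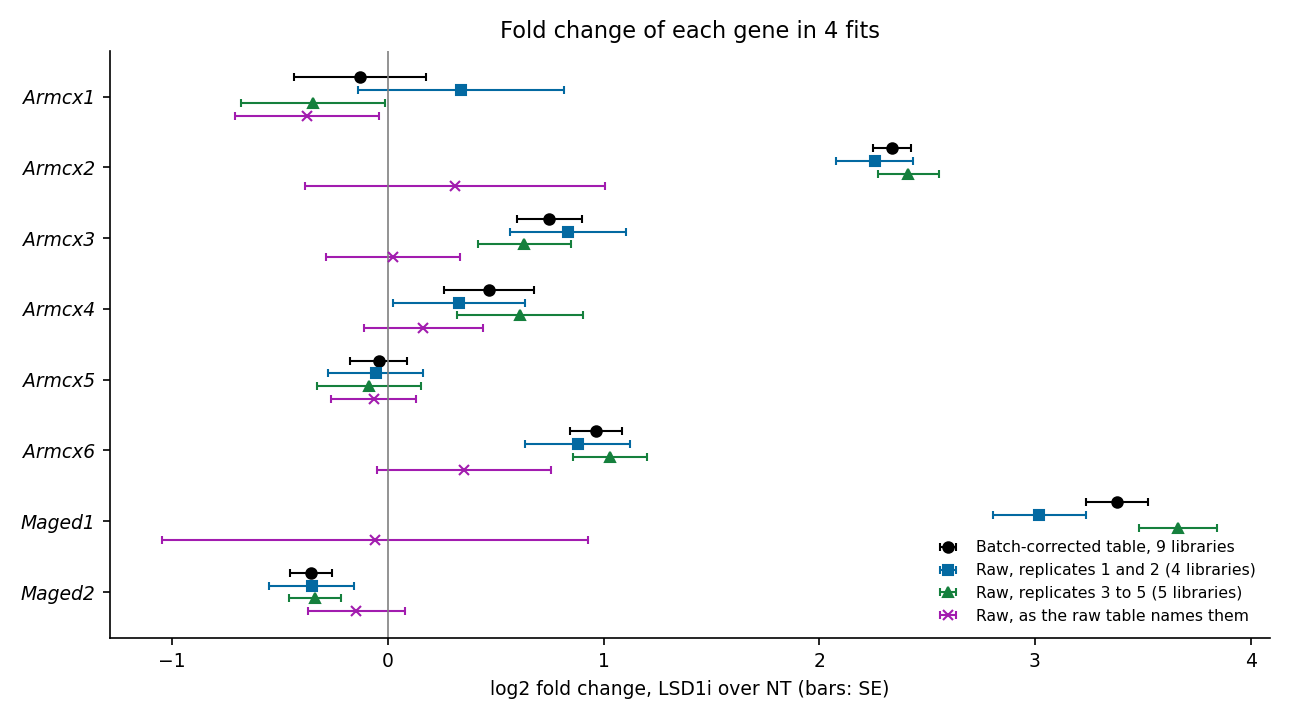
Log2 fold change of LSD1i over NT with its SE for each gene in 4 fits, the batch-corrected table with 9 libraries (circles), raw counts of replicates 1 and 2 (squares), raw counts of replicates 3 to 5 (triangles) and raw counts with the names of the raw table (crosses). Armcx2 lies between 2.26 and 2.41 and Maged1 between 3.02 and 3.66 in the first 3 fits, and at 0.31 and −0.06 with the raw names.

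Whether the difference itself changed between the batches was not part of how the genes were chosen, and it was tested as the interaction of group and batch in raw counts. None of the 8 passed in edgeR's quasi-likelihood test, nor did any of the 11916 tested genes (0.0% called, with 581 at an unadjusted p under 0.05). Maged1 came nearest among the 8, with a difference 0.61 ± 0.26 larger on the log2 scale in replicates 3 to 5 (unadjusted p = 0.042, adjusted p = 0.764 in edgeR), and Armcx2 had 0.13 ± 0.22 (adjusted p = 0.879). In data simulated with the same spread between libraries set for every gene, this test found 11.1% of genes whose effect differed by 1 on the log2 scale between the batches. At that spread differences of this size would mostly be missed. The spread of each of the 8 genes was not simulated, so this share need not hold for them.

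Under the names of the batch-corrected table, the levels of 3 of the 8 genes differed between the batches at equal treatment, which is near the share of all tested genes that did (38.7%). Armcx6 was higher in replicates 3 to 5 by 0.94 ± 0.14 on the log2 scale (adjusted p = 0.000659 in edgeR). It had 19.6 and 16.8 raw CPM in LSD1i 3 and LSD1i 4 and 8.17 and 10.04 in LSD1i 1 and LSD1i 2, so NT 3 to NT 5, at 7.86 to 10.5, were level with the treated libraries of the other batch. Maged2 was higher in replicates 3 to 5 as well (0.50 ± 0.10, adjusted p = 0.00383) and Maged1 was lower there (−0.76 ± 0.15, adjusted p = 0.0035). Armcx2 did not pass (0.06 ± 0.11, adjusted p = 0.664), with raw means of 48.8 and 53.3 CPM in LSD1i and 10.07 and 10.08 CPM in NT in the first and second batch. Armcx3 (0.45 ± 0.17, adjusted p = 0.0588) also did not pass, nor did Armcx1, Armcx4 and Armcx5.

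**Figure D4:**
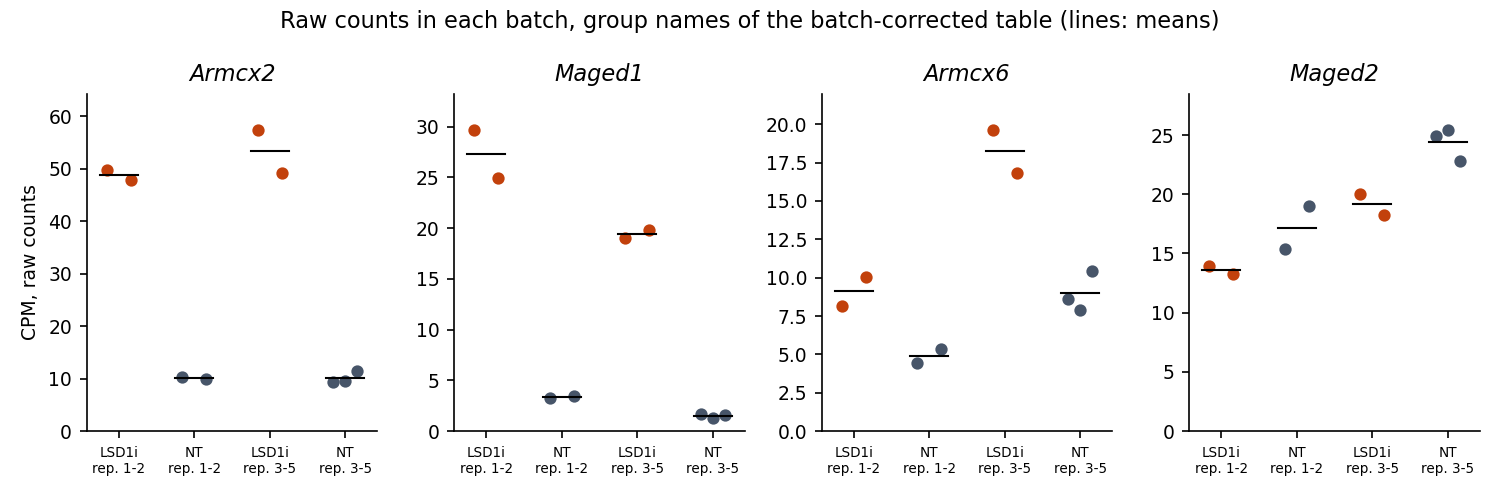
Raw CPM of Armcx2, Maged1, Armcx6 and Maged2 (linear axes from 0) in LSD1i (orange) and NT (grey) for replicates 1 and 2 and for replicates 3 to 5, under the names of the batch-corrected table, with a point per library and lines at the means. Within each batch LSD1i is above NT for Armcx2, Maged1 and Armcx6 and below it for Maged2, while Armcx6 and Maged2 stand higher and Maged1 lower in replicates 3 to 5.

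Genes that could share reads with the 8 were looked for in GENCODE M21 transcripts. No window of 50 bases was shared between any of the 8 genes. Armcx1, Armcx2, Armcx4 and Maged1 shared none with any other gene, and Maged2 shared 1.49% of its windows, with its neighbour Tro. Armcx3 shared 29.0% of its windows, among others with the pseudogene Gm9299, Armcx6 shared 14.8% with the pseudogene Gm16397, and Armcx5 shared 12.6%, among others with the overlapping gene Gprasp1. The counts of these 3 genes are to that extent uncertain, and reads of overlapping genes cannot be told apart, since no source says that strand was used in counting.

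Of the genes listed around the Armcx cluster and the Maged genes, none of the 20 with enough reads was called in edgeR, DESeq2 or limma, and 1 had an unadjusted p under 0.05 in edgeR (3.31% of all tested genes were called either way). Among the 11 genes listed beside and inside the Armcx cluster, 5 were tested. On the side of Armcx4, the splicing factor gene Hnrnph2 was at 62.5 ± 3.26 CPM in LSD1i and 57.2 ± 5.82 in NT (log2 fold change 0.13 ± 0.09), and on the side of Armcx2, the RNA export factor gene Nxf2 was at 1.70 ± 0.485 CPM in LSD1i and 1.67 ± 0.476 in NT (0.02 ± 0.27). Around Maged1, 8 of 10 listed genes were tested, with Eif2s3x, a translation initiation factor subunit, at −0.09 ± 0.07 and Zxda at 0.25 ± 0.16. Around Maged2, 7 of 10 were tested, the smallest p being that of the DNA repair endonuclease gene Apex2 (0.21 ± 0.09, adjusted p = 0.333). Without the 8 genes, 13 of 383 tested X-linked genes were called higher in LSD1i (3.39%) and 2 lower (0.522%), and their median log2 fold change was 0.0038, against −0.0186 for all tested genes.

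**Figure D5:**
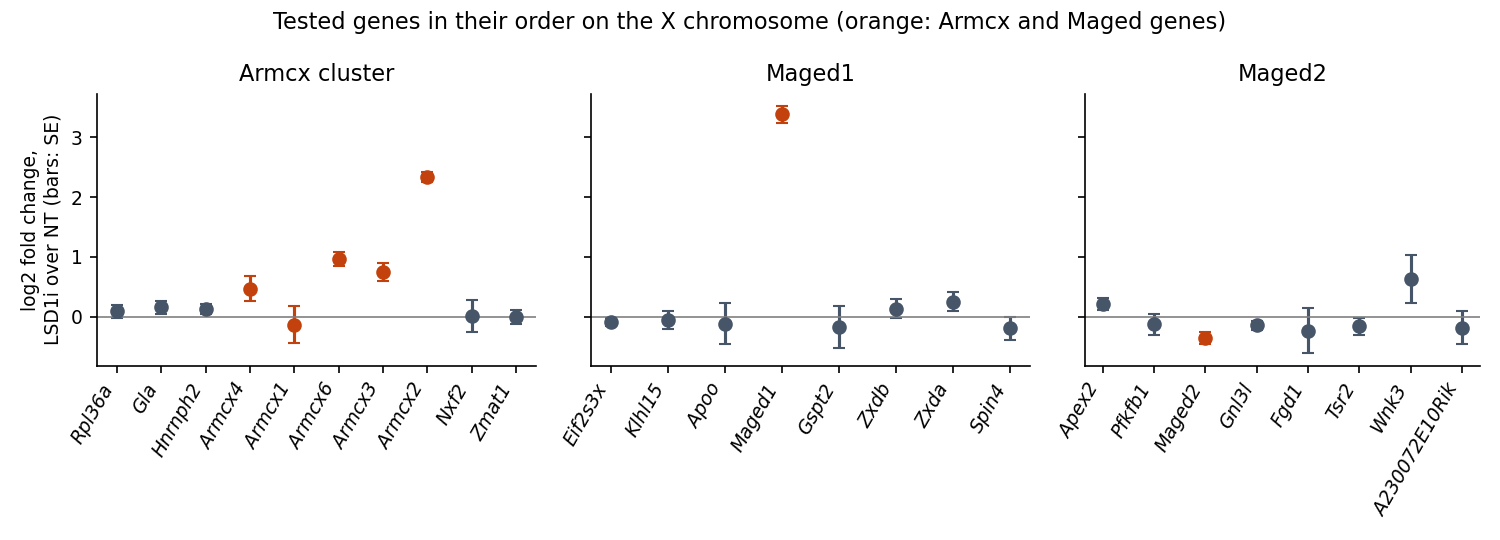
Log2 fold change of LSD1i over NT with its SE (batch-corrected table) for tested genes of each locus in their order on the X chromosome, with the Armcx and Maged genes in orange and their neighbours in grey. SEs are derived from the F statistic and are unsteady for changes near 0. Armcx2 at 2.34 and Maged1 at 3.38 stand above the neighbours drawn, which lie between −0.23 (Fgd1) and 0.63 (Wnk3).

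Relatives of both families did not pass. Of the other genes with the ARMCX-type domain, Armc10, from which the family is thought to derive, was at 86.7 ± 2.32 CPM in LSD1i and 86.3 ± 7.69 in NT (0.01 ± 0.08). Gprasp1, Gprasp2 and Bhlhb9 also did not pass (0 of 4 called in edgeR, DESeq2 and limma, 1 with an unadjusted p under 0.05 in edgeR), the smallest p-values being those of Bhlhb9 (−0.18 ± 0.08, adjusted p = 0.314) and Gprasp2 (−0.42 ± 0.29, adjusted p = 0.604). Of 18 other MAGE genes in the tables, 3 had enough reads to be tested, and 0 were called in edgeR, DESeq2 and limma (1 with an unadjusted p under 0.05 in edgeR). They were Magef1 (−0.50 ± 0.20, adjusted p = 0.255), Ndnl2, a subunit of the SMC5/6 complex (−0.18 ± 0.12, adjusted p = 0.561), and Magee1 (0.22 ± 0.14, adjusted p = 0.574). Tro, the closest neighbour and relative of Maged2, had 5 to 13 counts in LSD1i and 4 to 23 in NT and was not tested.

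Among the listed Bex, Tceal and Arxes genes of the same X-linked region, 1 of 6 tested genes was called higher, where 2.15% of all tested genes were, and 0 lower, where 1.16% were. It was Wbp5, at 42.8 ± 3.66 CPM in LSD1i and 33.3 ± 1.95 in NT (0.36 ± 0.09, adjusted p = 0.0441). All 6 had log2 fold changes above 0, as had 45.6% of all tested genes, with a median of 0.38 against −0.02 for all tested genes, although Arxes2 was at −0.25 in raw counts with a batch term. The call of Wbp5 was lost in 8 of 9 fits that left out a library (adjusted p up to 0.151) and in raw counts with a batch term (0.0793). Tceal3 (0.87 ± 0.27, adjusted p = 0.132) and Tceal8 (0.73 ± 0.32, adjusted p = 0.306) did not pass, both under 1 CPM.

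Of the listed partners of MAGE-D proteins, 1 of 15 tested genes rose, where 2.15% of all tested genes did, and 0 fell, where 1.16% did. Pja1, an X-linked E3 ubiquitin ligase that binds MAGED1, was at 90.7, 92.7, 71.3 and 94.3 CPM in LSD1i 1 to LSD1i 4, against 43.1, 49.8, 53.4, 49.0 and 50.2 CPM in NT 1 to NT 5. All LSD1i libraries were above all NT libraries, and LSD1i 3 was the lowest of its group. The log2 fold change was 0.83 ± 0.10 (adjusted p = 0.00087 in edgeR), and it was 1.07 in replicates 1 and 2 and 0.75 in replicates 3 to 5. It stayed past the threshold in raw counts with a batch term (adjusted p = 0.00196) and without any 1 library (adjusted p up to 0.00548). The uncalled partners with the smallest p-values were Hif1a, the oxygen-regulated transcription factor (0.27 ± 0.10, adjusted p = 0.221), and the apoptosis inhibitor Birc2 (0.21 ± 0.11, adjusted p = 0.44). Ngfr, the receptor that MAGED1 binds, had at most 1 count in LSD1i and 3 counts in NT and was not tested.

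No gene was called among those of mitochondrial transport (0 of 15 tested in edgeR, DESeq2 and limma, and 0 with an unadjusted p under 0.05) or of mitochondrial fusion and fission (0 of 18 by the same 3 tools, 2 with an unadjusted p under 0.05 in edgeR). Rhot1, which encodes a Miro protein, was at 65.7 ± 5.30 CPM in LSD1i and 66.4 ± 3.39 in NT (−0.01 ± 0.08). Trak2, an adaptor between Miro and kinesin, was at 66.9 ± 2.50 CPM in LSD1i and 62.2 ± 4.66 in NT (0.10 ± 0.08). The smallest p-values among the transport genes were those of the kinesin subunits Klc2 (−0.19 ± 0.11, adjusted p = 0.533) and Kif5c (−0.26 ± 0.17, adjusted p = 0.567). In the fusion and fission list they were those of Mtfr2 (−0.48 ± 0.15, adjusted p = 0.122) and of Dnm1l, the fission dynamin (−0.18 ± 0.08, adjusted p = 0.307). The medians of the transport and the fusion and fission lists were −0.10 and −0.09, against −0.02 for all tested genes. Log2 fold changes were above 0 for 3 of 15 transport genes and 4 of 18 fusion and fission genes, against 45.6% of all tested genes. This lean was not tested.

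The genes most like Armcx2 across the libraries were found from the root mean square (RMS) difference of log2 CPM, each gene centred on its mean over the 9 libraries, among the 9836 genes whose log2 CPM averaged 2 or more. Closest to Armcx2 were the intermediate filament gene Vim (RMS difference 0.278) and the retinoid X receptor gene Rxra (0.279), followed by the lamin gene Lmna (0.359), the glycosyltransferase gene Gcnt1 (0.359) and Tmtc2 (0.360). Vim was at 1900 ± 134 CPM in LSD1i and 527.5 ± 66.0 in NT. Closest to Maged1 were the kinase gene Cdc42bpb (0.362), Mnda (0.414), Gcnt1 (0.453), Rxra (0.609) and Lmna (0.615). Cdc42bpb was at 30.9 ± 2.94 CPM in LSD1i and 3.58 ± 0.741 in NT. Since Armcx2 and Maged1 differ mainly by treatment group, this measure picks genes with a like difference between the groups. Among the 7 of the 8 genes above the level limit (all but Armcx1), the smallest RMS differences were those of Armcx3 and Armcx6 (0.185) and of Armcx5 and Maged2 (0.193), Armcx2 and Maged1 were at 0.537, and the largest was that of Maged1 and Maged2 (1.85).

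Markers of other cell types were read beside these differences, since in bulk libraries fewer cells of a type and less RNA per cell cannot be told apart. The 7 neuronal markers summed to 8.67 to 10.1 CPM in LSD1i and 6.94 to 8.44 CPM in NT, led by the tubulin gene Tubb3 (6.05 CPM in LSD1i and 4.48 in NT, adjusted p = 0.126 in edgeR). Map2 also had the higher mean in LSD1i (2.33 CPM, 1.86 in NT). Syp (0.708 CPM in LSD1i and 0.870 in NT) and Gap43 (0.235 and 0.419) had the lower. None of the 3 neuronal markers tested was called in edgeR. Stmn2 had 0 counts, and Snap25 and Rbfox3 had at most 5 counts in any library. The 5 natural killer cell markers summed to 64.5 to 84.4 CPM in LSD1i and 39.2 to 50.1 CPM in NT, nearly all from Eomes, a transcription factor that CD8+ T cells also use, and Ncr1, Klra8 and Klra4 had 0 counts. Eomes was at 74.4 ± 8.13 CPM in LSD1i and 42.2 ± 4.53 in NT and was called higher (0.82 ± 0.10, adjusted p = 0.00108 in edgeR, up to 0.00553 without any 1 library). The 5 endothelial markers summed to 46.6 to 66.8 CPM in LSD1i and 36.2 to 51.8 CPM in NT, nearly all from Pecam1. Pecam1 was at 54.5 CPM in LSD1i and 41.9 in NT (adjusted p = 0.188 in edgeR) and was called in limma only. The other 4 had at most 5 counts in any library, with Emcn at 0 counts. The 7 B cell markers summed to 10.06 to 11.59 CPM in LSD1i and 11.36 to 12.46 CPM in NT, and both that could be tested were called, in opposite directions. Cd22, a sialic acid receptor of B cells, had 20 to 42 counts in LSD1i and 0 to 7 in NT (3.52 ± 0.54, adjusted p = 0.00365 in edgeR, up to 0.0176 without any 1 library). Cd79b, a chain of the B cell receptor, was at 8.65 ± 0.579 CPM in LSD1i and 11.6 ± 0.621 in NT (−0.43 ± 0.09, adjusted p = 0.0317 in edgeR), a call lost in 7 of 9 fits that left out a library (adjusted p up to 0.123). The call of Cd79b was also lost in raw counts with a batch term (adjusted p = 0.132 in edgeR) and with the replicate block (0.164). The other 5 B cell markers, among them Ms4a1 and Pax5, had at most 5 counts in any library. The 8 myeloid markers summed to 6.60 to 10.01 CPM in LSD1i and 6.14 to 9.65 CPM in NT, led by Cd68 (8.04 CPM in LSD1i and 7.97 in NT), with 5 of the 8, Lyz2 and Csf1r among them, at 5 counts or fewer. The 3 CD4 T cell markers summed to 38.5 to 45.7 CPM in LSD1i and 28.1 to 46.5 CPM in NT, led by Zbtb7b (41.8 CPM in LSD1i and 38.1 in NT). The 8 stromal markers, led by Thy1, which T cells also express, summed to 424 to 536 CPM in LSD1i and 414 to 494 CPM in NT, and 5 of them had at most 5 counts in any library. The part of such cells in the differences of the Armcx and Maged genes was not tested.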

How the data were processed

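RNA sequencing of 9 libraries gave a raw count table and a batch-corrected table, both deposited by the authors. STAR, featureCounts, edgeR and mm9 are named in the submitters' processing notes; the sources used here give no versions, strand setting or correction method. The raw table holds whole-number counts per the deposited file. The batch-corrected values, deposited by the authors, were handled as estimated counts, already whole. The authors' deposited comparison holds log2 fold changes, an F score and p-values. Log2 fold changes and marks were copied from it, and its F score and p-values were not used.

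The 8 genes, the lists and the tests were chosen with earlier results of these data known. Groups follow the labels through the names of the batch-corrected table. Counts were scaled by TMM, genes were kept by edgeR's filterByExpr (minimum count 10, minimum total 15), and LSD1i was compared with NT over 11981 genes by edgeR 4.0.16's quasi-likelihood test (R 4.3.3) with Benjamini-Hochberg adjustment at 0.05. The interaction with batch and the batch level were tested likewise in raw counts. The comparison of LSD1i with NT used the batch-corrected counts by group, without a batch term, so its p-values do not allow for the correction. Each SE is the absolute log2 fold change, fitted without shrinkage, divided by the square root of the F statistic of the test. The printed log2 fold changes are edgeR's slightly shrunken ones. Where the change is near 0 such an SE is unsteady and can be too small. CPM use library sizes after TMM. Alternatives used DESeq2 1.42.0, limma 3.58.1 with voom, other scalings and filters, raw counts, a replicate block and 1 library left out. Libraries held 15163983 to 29245278 raw reads, so genes near 1 CPM rest on about 15 to 29 reads. No pair of libraries in a group agreed within sampling noise (chi-square per degree of freedom at least 7.10). Batches were recovered from the ratio of corrected to raw counts over 9618 genes, which correlated between libraries at 0.755 to 0.98 within a set and −0.962 to −0.79 between sets; Rpph1 took 0.297% to 0.476% of raw reads in the first and 2.83% to 3.09% in the second.

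The genes named were the 8, the 5 most like Armcx2 and Maged1, the called genes of each list and marker set, the 2 uncalled ones of each list with the smallest p, and 5 neighbours on each side (1 neighbour is counted but not reported here); Armc10, Magee1, Rhot1, Trak2, Ngfr and the uncalled markers were named after their values were seen, for their role. Symbols were matched to RefSeq and GENCODE M21 for position, length and sequence. Data were simulated at the real means with the same spread between libraries set for every gene. On them the group test found 88.0% of genes changed by 1 on the log2 scale (11951 genes tested). The batch level test found 86.1% (11917 genes) and the interaction test 11.1% (11962 genes).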

Additional observations from a re-analysis of the deposited data

Results flagged for a closer look

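Among 86 groups of libraries examined for a library far from the rest, 4 had one, about what chance gives at 1 in 20. Pja1, the ligase that binds MAGED1, was at 71.3 CPM in LSD1i 3, with the next LSD1i library at 90.7 CPM, and this library was still above every NT library. Hif1a was at 993 CPM in NT 4, with the next NT library at 815 CPM. Gspt2, next to Maged1, was at 0.773 CPM in LSD1i 1, with the next LSD1i library at 0.425 CPM. Zxda, near Maged1, was at 4.86 CPM in NT 4, with the next NT library at 3.81 CPM. None of the 8 Armcx and Maged genes had such a library in either group.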

How the results depend on the processing

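The choice of library names changed the results most. Under the raw names, 0 genes were called higher, 0 lower and 0 of the 8, and Maged1 (−0.058) and Pja1 (−0.10) turned sign. The batch-corrected table gave 258 genes higher and 139 lower in LSD1i, with 4 of the 8 genes called. Raw counts under the batch-corrected names gave 166 higher and 54 lower (3 of the 8, without Armcx3) with a batch term, and 71 higher and 13 lower (2 of the 8) without it. The 5 libraries named alike gave 97 higher and 20 lower (2 of the 8), and replicates 1 and 2 alone 8 higher and 0 lower (2 of the 8), both with fewer libraries; there Pja1 had 1.07 (adjusted p = 0.227 in edgeR) and was not called. DESeq2 gave 400 higher and 267 lower (5 of the 8, with Maged2), and limma voom with sample weights 625 higher and 434 lower (6 of the 8, with Maged2 and Armcx4). The causes of these differences were not tested. Other scalings and filters stayed within 1.5 times.

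Leaving out 1 library in turn gave 163 to 303 genes higher, 56 to 159 lower and 3 to 5 of the 8 genes. The higher count fell by over 1.5 times without LSD1i 1 (166) or LSD1i 4 (163), and the lower count without NT 2 (86), NT 3 (87), NT 4 (81), LSD1i 1 (62), LSD1i 3 (63) or LSD1i 4 (56). Of the 8 genes 3 were called without NT 2, NT 3, NT 4 or LSD1i 4, and 5 without NT 5. Armcx2 stayed between 2.31 and 2.38 and Maged1 between 3.29 and 3.45.

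Same-numbered libraries did not deviate together throughout. Their correlations were −0.145, 0.452, 0.126 and −0.375 in the batch-corrected table, and 0.562, 0.562, 0.521 and −0.567 in raw counts within batch. In the raw counts, LSD1i 1 and LSD1i 2 but neither LSD1i 3 nor LSD1i 4 correlated best with the NT library of their number. Where a batch held only 2 libraries of a group, their deviations mirror each other, so their raw correlations are not separate observations. The numbers were not taken as pairs. With the replicate block the batch-corrected table gave 219 higher and 107 lower and raw counts 236 higher and 116 lower, each with 4 of the 8 genes; Wbp5 was not called in raw counts with the block (adjusted p = 0.105).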
